A study of Mus musculus with 5 samples.

Results

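The genes described here are Tnf and 8 genes of the NF-kB core and its feedback loop, measured in mouse gastric organoids, which are cell clusters grown from stomach epithelium. They are the ligand gene Tnf, the Rel subunit genes Nfkb1, Rela, Nfkb2 and Relb, the inhibitor genes Nfkbia and Nfkbie, and the feedback and survival genes Tnfaip3 and Birc3. The members were named as a list, with earlier results of these data known. A member's probes were those whose transcript accession belongs to that gene symbol. All 9 were found among 23779 named genes and all 9 were among the 17583 genes tested. Every member was well above background, the scanner software's test of a spot against its local background, on all 5 arrays, so none entered through 1 group alone.

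The series holds 5 single-colour Agilent arrays, 1 array for each sample. The control came from Trp53flox/flox mice, in which the Trp53 gene is flanked by recombination sites. This organoid line carried the vector pLKO.1 with shLuc, a hairpin against luciferase, and was collected ahead of subcutaneous injection. Each of the 4 remaining samples was cultured from a subcutaneous tumour and labelled with Trp53 loss. A pair carried shCdh1, a hairpin against the E-cadherin gene Cdh1 (#1 and #2, here hairpin 1 and hairpin 2), 1 carried Apc580D and 1 carried Pik3caH1047R, an activating mutation of a PI3-kinase catalytic subunit. The control therefore differed from every tumour-derived sample in Trp53, in the added lesion and in passage through a mouse, and these cannot be told apart. All 5 samples are labelled as female stomach organoids, and the growth medium in the labels was serum-free, with EGF, R-spondin1, Noggin, Jagged-1, a ROCK inhibitor and CHIR-99021. Each tumour genotype other than shCdh1 is 1 line, and the labels do not say whether the hairpins came from separate cultures or mice, so a p-value measures the spread between these samples only, part of which may be technical. Further tumour-derived organoids that the design text counts were not analysed here.

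NF-kB is a family of dimeric transcription factors that inhibitor proteins, the IkBs, hold in the cytoplasm until TNF, interleukin 1 or a Toll-like receptor activates the IKK kinases, which mark the IkBs for destruction. Freed dimers then switch on cytokine, chemokine and survival genes together with their own inhibitors, among them Nfkbia and Tnfaip3, so that the pathway limits itself. In the stomach the pathway is known for its part in the epithelial response to Helicobacter and in gastritis.

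The promoters of the members are shown because several of these genes are textbook targets of NF-kB and carry its kappa B site next to their start. RefSeq promoter entries on GRCm38.p6 were at hand for 7 of the 9 members, with 10 windows in all, and Nfkb1 and Relb had no entry. Each window holds the 250 bases upstream of an annotated transcript start, and the capitals below mark matches on either strand to the kappa B consensus, the decamer bound by Rel dimers.
Tnf, chr17:35202008-35202257 (minus strand): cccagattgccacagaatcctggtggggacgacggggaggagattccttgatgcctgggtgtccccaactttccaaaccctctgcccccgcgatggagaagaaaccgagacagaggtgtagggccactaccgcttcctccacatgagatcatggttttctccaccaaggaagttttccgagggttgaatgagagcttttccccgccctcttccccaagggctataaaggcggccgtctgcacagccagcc
Nfkbia, chr12:55492648-55492897 (minus strand): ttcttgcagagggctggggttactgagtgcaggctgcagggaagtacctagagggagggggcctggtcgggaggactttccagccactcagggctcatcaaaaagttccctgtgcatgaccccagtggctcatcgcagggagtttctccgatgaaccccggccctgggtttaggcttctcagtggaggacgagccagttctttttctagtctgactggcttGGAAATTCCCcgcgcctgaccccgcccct
Nfkbie, chr17:45555450-45555699 (plus strand): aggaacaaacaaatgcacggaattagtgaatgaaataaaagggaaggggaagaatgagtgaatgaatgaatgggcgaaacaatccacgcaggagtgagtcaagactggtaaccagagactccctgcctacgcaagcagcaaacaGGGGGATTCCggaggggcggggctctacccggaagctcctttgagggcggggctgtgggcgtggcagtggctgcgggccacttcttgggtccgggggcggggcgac
Tnfaip3, chr10:19015411-19015660 (minus strand): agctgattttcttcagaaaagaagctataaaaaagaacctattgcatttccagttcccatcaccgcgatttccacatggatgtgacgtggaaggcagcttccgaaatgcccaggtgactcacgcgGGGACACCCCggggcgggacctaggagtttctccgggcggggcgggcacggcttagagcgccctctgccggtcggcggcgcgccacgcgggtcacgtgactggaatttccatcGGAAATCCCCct
Nfkb2, chr19:46304487-46304736 (plus strand): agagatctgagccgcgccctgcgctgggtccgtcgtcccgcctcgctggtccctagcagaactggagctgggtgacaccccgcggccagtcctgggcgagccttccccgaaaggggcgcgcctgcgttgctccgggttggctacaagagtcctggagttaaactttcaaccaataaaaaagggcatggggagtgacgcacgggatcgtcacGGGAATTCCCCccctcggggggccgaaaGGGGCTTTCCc
The consensus was present in 4 of the 7 members, in 6 of their 10 windows, against 7.25% of 32851 promoter windows of the same length. Windows 1, 2 and 3 of Nfkb2 are among those 6. In Nfkbia the match lay 29 to 20 bases upstream of the start, and in Nfkbie it lay 106 to 97 bases upstream. Window 1 of Tnfaip3, the one printed, held a match at 125 to 116 bases, read on both strands, and another at 12 to 3 bases. Window 1 of Nfkb2, the one printed, held an 11-base stretch at 39 to 29 bases in which both strands match. It held another match at 11 to 2 bases. The windows of Tnf, Rela and Birc3 and window 2 of Tnfaip3 held none, which says only that these letters are not in these 250 bases. The looser pattern GGGNNNNNCC was found in 45.8% of all windows and in every window of the members, those of Tnf, Rela and Birc3 included. A match is a description of the letters, and no binding was measured.

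**Figure D1:**
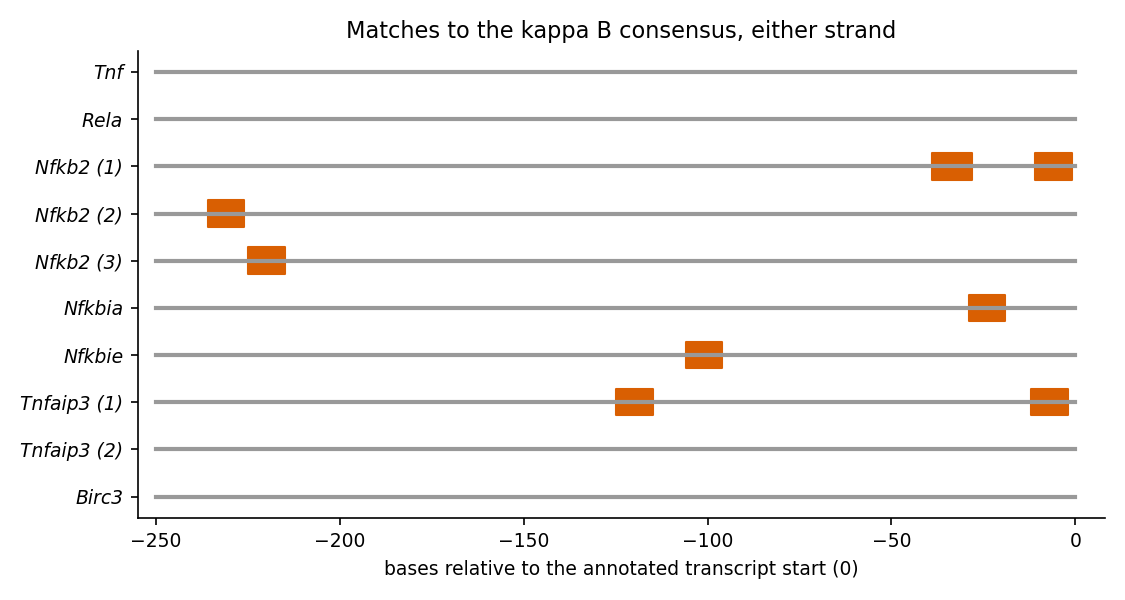
Positions of kappa B consensus matches (orange boxes) in the 250 bases upstream of each annotated transcript start of the 7 members with a RefSeq entry. Each grey line is 1 window, the number in brackets separates the windows of a gene with several starts, and the horizontal axis is the distance in bases from the start at 0. Nfkb2, Nfkbia, Nfkbie and window 1 of Tnfaip3 have matches, and Tnf, Rela, Birc3 and window 2 of Tnfaip3 have none.

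On the arrays, 61.8% to 65.3% of the 59305 non-control spots were well above background, and no spot was saturated. The signals of Cdh1 and Trp53 followed the labels, while the Apc and Pik3ca lesions were not checked. Cdh1 stood at 0.07 and 0.26 in the hairpin arrays against 4.39 to 4.58 in the other 3, and Trp53 at 0.85 in the control against −5.86 to −4.86 in the tumours, both as log2 signal relative to the array's 75th percentile. The library labelled Pik3ca went against its sex label. Its Xist signal was not above background, and 4 Y-linked genes (Uty, Kdm5d, Ddx3y, Eif2s3y) were detected there and on no other array. All 12 gastric epithelial markers were well above background on all 5 arrays. The control and both hairpin arrays shared slide 1 and scan 1, while Apc and Pik3ca shared slide 2 and scan 2.

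The members stood higher in the tumour-derived organoids than in the control, and the largest difference was that of Tnf on both of its probes, but no member passed limma's test across all genes. The mean of the 4 tumours was above the control for 9 of 9 members, against 55.4% of all genes tested. All 4 tumour arrays were above the control for 8 of 9, against 30.2% of all genes, Nfkb1 being the exception. Tnf, Nfkbia and Nfkbie, 3 of 9, were at least 2-fold higher in the mean, against 9.88% of all genes. Their median difference was 0.71 on the log2 scale, beside 0.06 over all 17583 genes. At an adjusted p below 0.05, 0 of 9 passed, against 0.119% of all genes (21 of 17583). At an unadjusted p below 0.05, 3 of 9 were higher (Tnf, Nfkb2 and Nfkbia), against 6.84% of all genes. These values come from a fit with 1 control array, which is assumed to vary as the 4 tumours do. Because the members were chosen with earlier results of these data known, their counts beside all genes are descriptions and not a test.

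Counts were also taken without the library labelled Pik3ca, and the same limit from the choice of members holds for them. All 3 remaining tumours were then above the control for 9 of 9 members, against 33.3% of all genes, and 4 of 9 were at least 2-fold higher, against 9.62%, with Birc3 added. An unadjusted p below 0.05 was reached by 4 of 9, against 5.42% of genes higher at that level, with Relb added. The median member difference was 0.79, beside 0.06 over all genes.

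**Figure D2:**
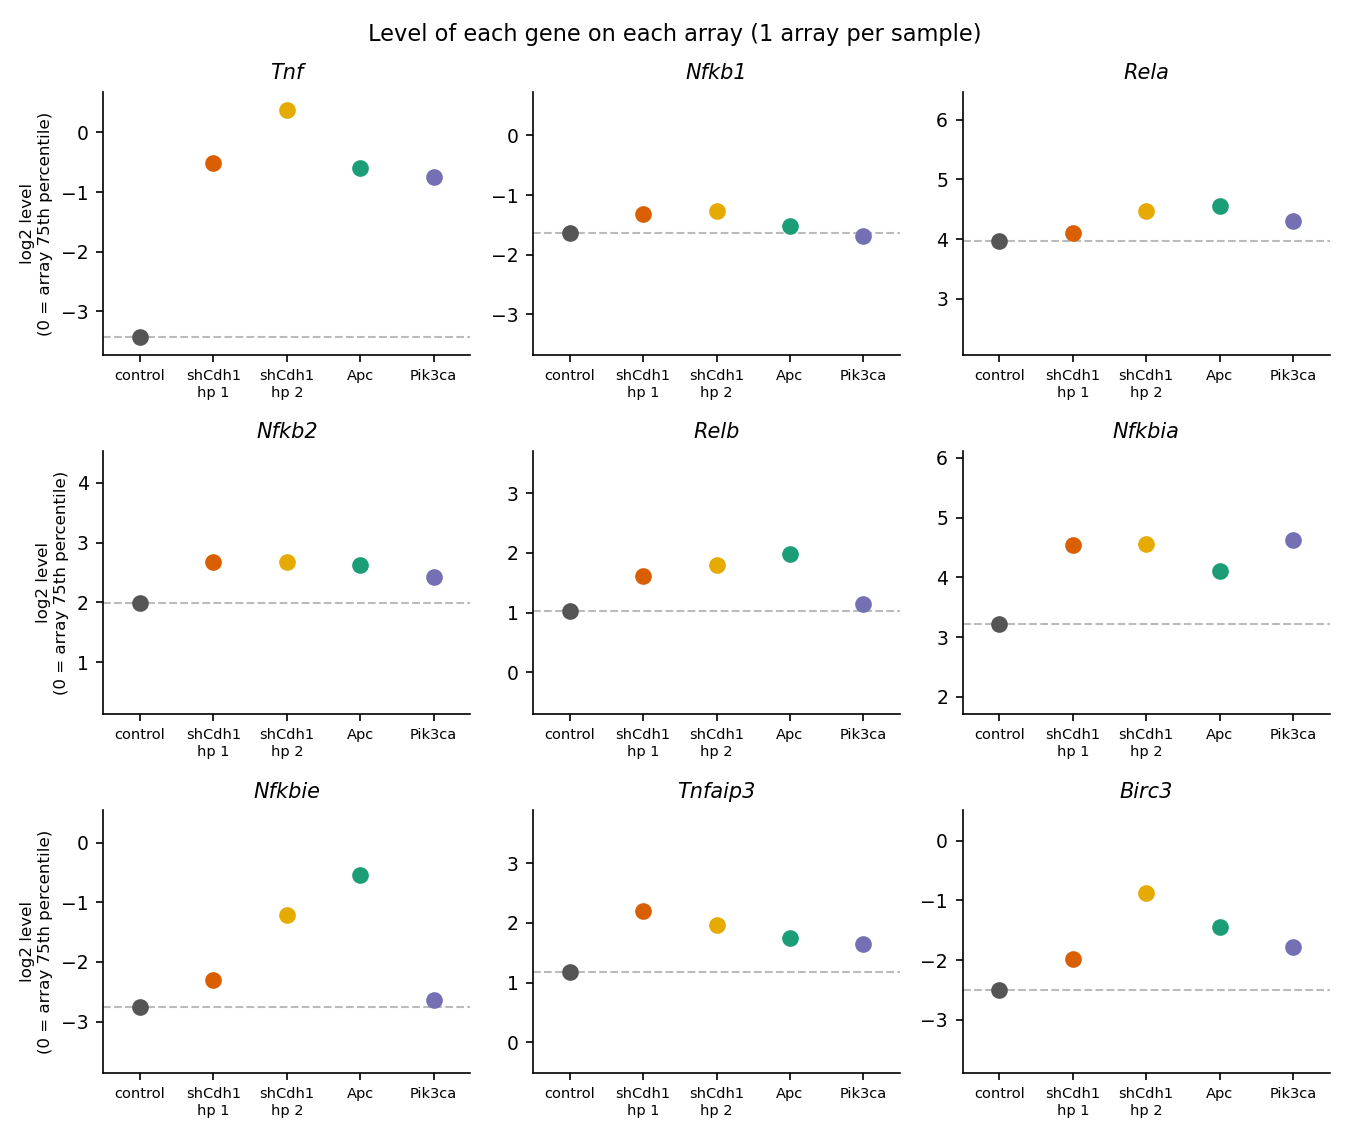
Level of each of the 9 genes on each of the 5 arrays, as log2 signal with 0 at the array's 75th percentile. Each point is 1 array, the dashed line is the control's level, and every panel spans the same number of log2 units around a different centre, so heights compare arrays within a gene and not genes. Tnf runs from −3.42 in the control to 0.37 in hairpin 2, and Nfkb1 in Pik3ca, at −1.68, is the only tumour value under its control.

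Tnf encodes tumour necrosis factor, the cytokine that gives the pathway its best known trigger. Its level was −3.42 in the control, −0.52 in hairpin 1, 0.37 in hairpin 2, −0.60 in Apc and −0.75 in Pik3ca. All 4 tumours stood above the control and the groups did not overlap. Relative to the control the signal was 7.48-fold in hairpin 1, 13.8-fold in hairpin 2, 7.05-fold in Apc and 6.35-fold in Pik3ca. The tumour mean was higher by 3.04 ± 0.48 (SE, 4 tumours against 1 control), 8.25-fold, with a 95% interval of 1.80 to 4.29 and a limma adjusted p of 0.18. That difference ranked 187 of 17583 genes. Among the tumours, hairpin 1, Apc and Pik3ca lay within 1 residual SD of their neighbours in the order (0.43 log2 units, limma's moderated value, which draws on the pair of hairpins). Hairpin 2 stood 0.89 above hairpin 1, a gap that enters that SD itself. Without the Pik3ca library the difference was 3.17 (adjusted p = 0.305). Within slide 1, which holds the control and both hairpins, it was 3.35, and with slide as a block its adjusted p was 0.327.

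The size of the Tnf difference depended on the probe. A gene was represented by its probe with the highest mean over all 5 arrays. The other Tnf probe, to the same transcript, read −3.09 in the control, −1.46 and −0.74 in the hairpins, −1.73 in Apc and −1.74 in Pik3ca. It was the brighter of the pair in the control and the dimmer in all 4 tumours, so the rule chose the Tnf probe through its tumour signal. It placed the 5 arrays in the same order but gave a tumour-minus-control difference of 1.68 ± 0.45, 3.2-fold (limma adjusted p = 0.252 over 38998 probes). With the mean of both probes the difference was 2.36 ± 0.46 (adjusted p = 0.221).

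The Rel subunits carry the DNA binding of the pathway. Nfkb1 encodes the precursor of the classical partner of Rela, and Rela encodes the main activating subunit of the classical dimer. Nfkb1 read −1.63 in the control, −1.32 and −1.27 in the hairpins, −1.52 in Apc and −1.68 in Pik3ca. Pik3ca lay under the control by less than the residual SD of 0.22, so tumours and control overlapped. Under normexp background correction it lay 0.016 above the control, and under median scaling Apc lay under the control, at −0.11. The tumour mean was 0.18 ± 0.25 above the control (adjusted p = 0.796, 95% interval −0.47 to 0.84). Rela read 3.97 in the control, 4.11 and 4.48 in the hairpins, 4.56 in Apc and 4.31 in Pik3ca. No neighbours in that order differed by more than the residual SD of 0.27, and the mean difference was 0.39 ± 0.26, 1.31-fold (adjusted p = 0.571). A dimmer Rela probe had 3 of 4 tumours above the control and a difference of 0.08, with Pik3ca at −2.82 under the control's −2.56.

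Nfkb2 encodes the precursor used by the non-canonical arm of the pathway, and Relb encodes the subunit that pairs with its product. Nfkb2 read 1.99 in the control, 2.68 in both hairpins, 2.62 in Apc and 2.42 in Pik3ca. The 4 tumours were close together and all stood above the control. The mean difference was 0.61 ± 0.22, 1.53-fold, with an unadjusted p of 0.0404 and a limma adjusted p of 0.355, and a dimmer Nfkb2 probe gave 0.75 ± 0.25. Relb read 1.03 in the control, 1.61 and 1.79 in the hairpins, 1.98 in Apc and 1.15 in Pik3ca. Pik3ca was next to the control, 0.12 above it and 0.46 under hairpin 1, against a residual SD of 0.23. The mean difference was 0.61 ± 0.36, 1.52-fold (adjusted p = 0.534), or 0.77 ± 0.27 without the Pik3ca library (adjusted p = 0.471). A dimmer Relb probe gave 0.67 ± 0.36 with the same order of arrays.

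Nfkbia encodes IkB-alpha, the inhibitor that NF-kB resynthesises quickly to end its own response. Its level was 3.21 in the control, 4.54 in hairpin 1, 4.56 in hairpin 2, 4.11 in Apc and 4.62 in Pik3ca. The tumours did not overlap the control, with 2.5-fold and 2.54-fold of its signal in the hairpins, 1.86-fold in Apc and 2.65-fold in Pik3ca. The mean difference was 1.24 ± 0.28, 2.36-fold, with a 95% interval of 0.52 to 1.96, an unadjusted p of 0.00702 and a limma adjusted p of 0.247. It ranked 1272 of 17583 by size. Both hairpins and Pik3ca were close together, and Apc stood 0.43 under hairpin 1, against a residual SD of 0.22. Nfkbia has 1 probe on the array.

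Nfkbie encodes IkB-epsilon, an inhibitor that is also induced by the pathway and acts later. Its level was −2.76 in the control, −2.31 in hairpin 1, −1.22 in hairpin 2, −0.55 in Apc and −2.64 in Pik3ca. The values spread widely among the tumours, with Pik3ca 0.12 above the control, 1.09 between the hairpins, and Apc at the top. The tumour mean was 1.08 ± 0.86 above the control, 2.12-fold (adjusted p = 0.636). It was 0.71 without the Apc array and 1.40 without the Pik3ca array, neither passing. Apc alone stood 2.21 ± 0.70 above the control, 4.62-fold (limma adjusted p = 0.559). Tnf in Apc differed from the control by 2.82 on the probe used and by 1.36 on its other probe, so the order of the members in Apc turns with the probe.

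Tnfaip3 encodes a ubiquitin-editing enzyme that shuts down signalling from the TNF receptor, and Birc3 encodes an inhibitor of apoptosis that adds ubiquitin chains in the same receptor complex. Tnfaip3 read 1.18 in the control, 2.20 and 1.97 in the hairpins, 1.75 in Apc and 1.65 in Pik3ca. All 4 tumours stood above the control, with Pik3ca nearest to it at 0.47. The mean difference was 0.71 ± 0.29, 1.64-fold, with an unadjusted p of 0.0551 and a limma adjusted p of 0.384. Birc3 read −2.50 in the control, −1.98 in hairpin 1, −0.87 in hairpin 2, −1.45 in Apc and −1.78 in Pik3ca. The groups did not overlap, but hairpin 1 lay only 0.52 above the control against a residual SD of 0.51. The mean difference was 0.98 ± 0.47, 1.98-fold (adjusted p = 0.444). Tnfaip3 was the only member with hairpin 1 as the highest tumour.

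**Figure D3:**
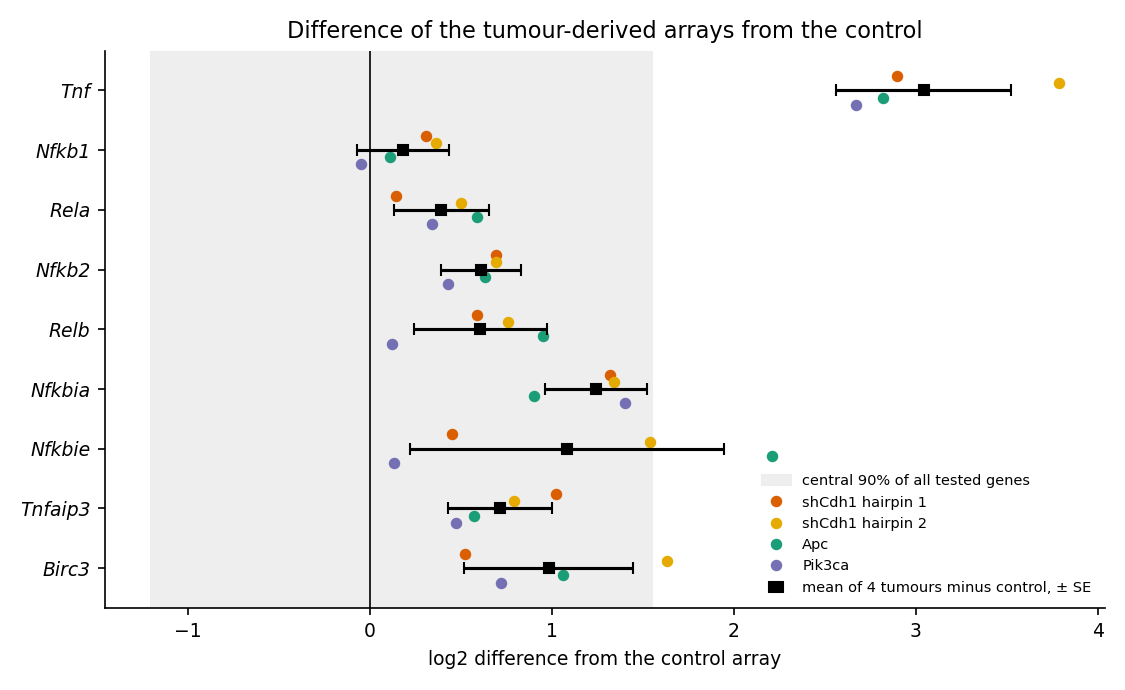
Log2 difference from the control array for each gene. Coloured points are the 4 tumour arrays, black squares are their mean with ± 1 SE from the limma fit, and the grey band holds the central 90% of all 17583 genes (−1.21 to 1.55). The mean of Tnf lies outside the band, and those of the other 8 genes lie inside it.

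The 4 tumour arrays stood above the control for 8 or 9 of the 9 members, with different median differences. The 1 exception was Nfkb1 in Pik3ca, 0.05 under the control against a residual SD of 0.22, and 0.016 above it with normexp. Hairpin 1 was above the control for 9 of 9 members, with a median difference of 0.59, where 56.2% of all genes were above the control. Hairpin 2 was also above for 9 of 9, with a median of 0.79 and the same 56.2% of genes. Apc was above for 9 of 9 with a median of 0.90, where 49.3% of genes were above, and Pik3ca for 8 of 9 with a median of 0.43, where 54.3% of genes were above. Pik3ca was the lowest tumour for 6 of 9 members, and hairpin 2 was the highest for 4. No share over all genes was taken, so nothing is drawn from these counts. For Tnf, Nfkb2, Nfkbie and Tnfaip3, Pik3ca lay within 1 residual SD of the next tumour. For Nfkb1 and Nfkb2, hairpin 2 lay within 1 residual SD of hairpin 1. Hairpin 2 read above hairpin 1 for 8 of 9 members, against 49.2% of all genes. Several of these gaps were small, at 0.007 for Nfkb2, 0.02 for Nfkbia, 0.05 for Nfkb1 and 0.18 for Relb. The largest was 1.11, for Birc3.

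The genotype comparisons used a fit with 1 mean per group, whose spread comes from the pair of hairpins alone. All comparisons with the control use the same control array, so their values are set side by side and are not independent. Slide and scan also differ between Apc or Pik3ca and the arrays of the control and the hairpins, so in each of those comparisons slide and genotype cannot be told apart. Tnf was higher than the control by 3.35 ± 0.52 in shCdh1 (limma adjusted p = 0.457), by 2.82 ± 0.60 in Apc (0.46) and by 2.67 ± 0.60 in Pik3ca (0.382). Nfkbia was higher by 1.33 ± 0.27, 0.90 ± 0.31 and 1.40 ± 0.31 in that order, with adjusted p-values of 0.482, 0.579 and 0.375. No member passed in these comparisons, where 0% of genes passed in shCdh1, 0% in Apc and 0% in Pik3ca. At an unadjusted p below 0.05 stood 2 members in shCdh1 (Tnf and Nfkbia, against 9.74% of genes, 1712 of 17583), 1 in Apc (Tnf, against 9.02%, 1586) and 2 in Pik3ca (Tnf and Nfkbia, against 11.5%, 2030). Between tumour genotypes no member passed either. For shCdh1 against the mean of Apc and Pik3ca the member differences ran from −0.17 (Nfkbie) to 0.60 (Tnf, interval −0.76 to 1.97), 0 of 9 passed, and 0% of all genes passed. No member reached an unadjusted p below 0.05 there, against 6.03% of genes (1060). For Apc against Pik3ca the range was −0.51 (Nfkbia) to 2.08 (Nfkbie), with Relb at 0.83, 0 of 9 passed, and 0% of all genes passed. Again 0 of 9 reached an unadjusted p below 0.05, against 6.16% of genes (1083). The Nfkbie difference between Apc and Pik3ca was 2.08 ± 0.70, 4.24-fold, with an interval of −0.17 to 4.34 and an adjusted p of 0.839.

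**Figure D4:**
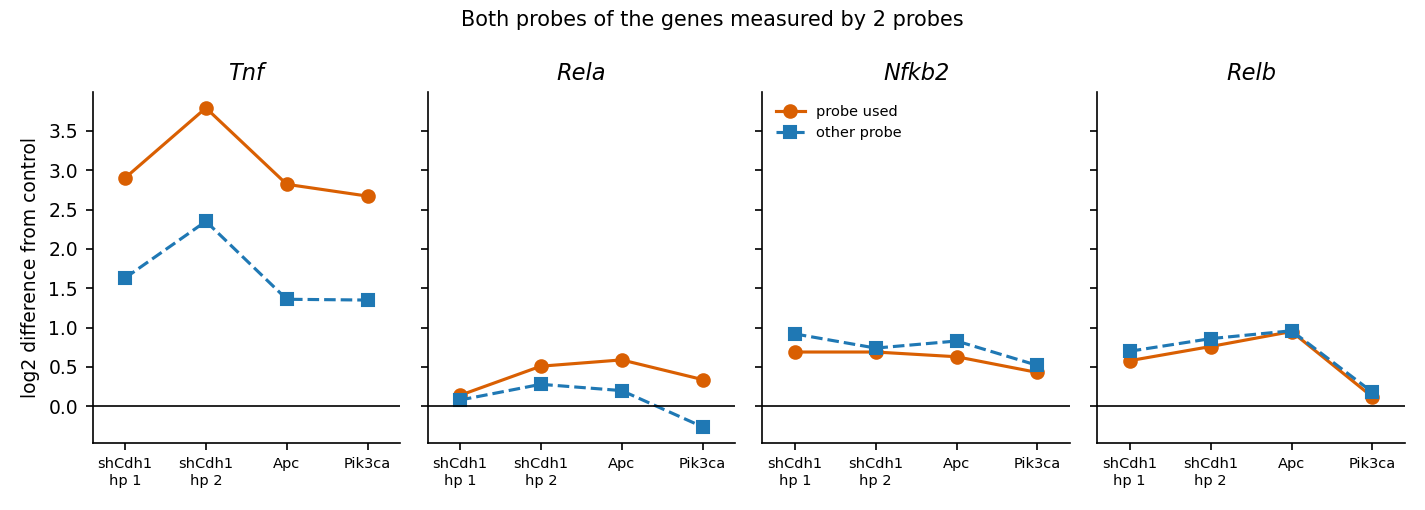
Log2 difference from the control array for both probes of the 4 members that have 2 probes. Orange circles are the probe with the higher mean over all 5 arrays, whose value represents the gene, blue squares the other probe, and each point is 1 tumour array. The Tnf probes share a shape and differ in height (3.04 against 1.68 in the mean), the Nfkb2 and Relb probes nearly coincide, and the other Rela probe lies under 0 in Pik3ca.

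By the distance between array profiles (the root mean square difference over the 5 arrays after each gene's mean was removed, among 13307 candidate genes), the profiles most like that of Tnf were those of Tmem212 at 0.20 and Ppm1j, a protein phosphatase gene, at 0.21. Zfp532 followed at 0.38, then F2r, a thrombin receptor gene, and Cdkn2a, which encodes cell cycle inhibitors, both at 0.45. Among the other members the nearest to Tnf were Nfkbia at 0.82 (rank 176) and Birc3 at 0.85 (rank 215). The profiles most like that of Nfkbia were those of Smc4, a condensin subunit gene, Pim3, a kinase gene, Ankrd50, Ssh1 and Hs3st1, at 0.072 to 0.087. The nearest members to Nfkbia were Tnfaip3 at 0.31 (rank 688) and Nfkb2 at 0.34 (rank 1037). The distance keeps the size of a difference, and for Tnf it was taken on the probe used (3.04, against 1.68 on the other). Distances and ranks from Tnf therefore hold for that probe, and those from its other probe were not computed. With 5 arrays, these distances are descriptions.

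The other genes of the pathway were followed through 7 lists, ordered here from the receptor to the targets, and no gene of these lists passed the test. Counts and medians are over the genes well above background on all 5 arrays, for which the median over all 14581 such genes was 0.03, since a gene detected only in the tumours enters the test through them. Of 10 TNF receptor and adaptor genes, 4 were higher and 6 lower in the tumours, with a median difference of −0.28. None was higher and 1 was lower at an unadjusted p below 0.05, where 6.84% and 6.5% of all genes were. The death domain adaptor gene Fadd was lower by 0.92 ± 0.25 (adjusted p = 0.283), and Ripk1, the receptor's signalling kinase, differed by −0.47. Rbck1, of the linear ubiquitin complex, and the adaptor gene Traf5 differed by −0.39 and 0.38. The TNF receptor gene Tnfrsf1a itself read 3.54 in the control and 2.99 to 3.33 in the tumours. Of 10 genes of the IKK and TAK1 kinases and their partners, 4 were higher and 6 lower with a median of −0.02. None was at an unadjusted p below 0.05. The most distant were Ikbke (−0.61), Chuk (−0.45), Ikbkg (−0.32) and Tab2 (0.29).

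Of 8 genes of the non-canonical arm, 6 were well above background on all 5 arrays, with 3 higher, 3 lower and a median of 0.17, and Cd40 was on none. Ltb, which encodes the ligand lymphotoxin beta, read −2.85 in the control, −0.89 and −0.26 in the hairpins, 2.32 in Apc and −0.64 in Pik3ca. All tumours were above the control, Apc by far the most, and the mean difference was 2.98 ± 1.31 (adjusted p = 0.416). Map3k14, which encodes the arm's kinase NIK, was higher by 0.85 ± 0.37 (adjusted p = 0.411). Tnfsf13b, which encodes the ligand BAFF and was named after its value was seen, was not well above background in the control and was so in 3 tumours. It was at least 1.61-fold higher (adjusted p = 0.123). The receptor genes Ltbr and Tnfrsf12a differed by −0.57 and 0.35. The list of 8 other Rel, IkB and related genes had a median of 0.00, with 4 higher and 4 lower. Ankrd42 was at −0.60, and the nuclear IkB genes Nfkbiz, Nfkbid and Bcl3 were at 0.37, 0.36 and 0.29.

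Other feedback and survival targets numbered 15, of which 11 were higher and 4 lower, with a median of 0.54. At an unadjusted p below 0.05, 4 were higher and 1 lower. Of all 14581 genes above background throughout, 7766 were higher, and at that level 827 were higher and 969 lower. Traf1, a signalling adaptor gene induced by the pathway, read −4.76 in the control, −3.37 and −2.35 in the hairpins, −2.44 in Apc and −2.83 in Pik3ca. Its mean difference was 2.02 ± 0.45, 4.05-fold, with no overlap (limma adjusted p = 0.241). Ier3, an early survival gene, read 2.27 in the control, 4.13 and 4.17 in the hairpins, 3.42 in Apc and 4.31 in Pik3ca, a difference of 1.74 ± 0.40 (adjusted p = 0.249). As for Nfkbia, Apc was its lowest tumour. Tnfaip2 was higher by 1.12 ± 0.61 and the deubiquitinase gene Cyld by 1.06 ± 0.29, with adjusted p-values of 0.501 and 0.28. Zc3h12a, which encodes an RNase that degrades inflammatory transcripts, was lower by 0.75 ± 0.23 (adjusted p = 0.313) and was named after its value was seen. Of 10 genes of the Toll and interleukin 1 arm, 8 were above background throughout, with 3 higher, 5 lower and a median of −0.31. Irak3, an inhibitory member of that arm, was at 0.95 ± 0.98, and Traf6, Tlr4 and Irak1 were at −0.56, −0.45 and −0.39.

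Of 16 cytokine, chemokine and adhesion targets, 9 were above background throughout, with a median of 0.75 and none at an unadjusted p below 0.05. Of those 9, 8 were higher and 1 lower, where 7766 of all 14581 such genes were higher. A further 3 of the 16 were on no array above background, and 4 were above it in tumours only. Vcam1, an adhesion molecule gene, read −4.64 in the control, −2.34 and 2.19 in the hairpins, −1.02 in Apc and −1.57 in Pik3ca. All tumours were above the control but spread over several log2 units, and the difference was 3.95 ± 1.74 (adjusted p = 0.419). The iron-binding defence gene Lcn2 was at 2.09 ± 1.34, the neutrophil chemokine gene Cxcl5 at 1.50 ± 0.95, and the macrophage growth factor gene Csf1 at 1.44 ± 0.94.

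In the pathway lists, 4 genes were not well above background in the control and were so in all 4 tumours, and they were named after their values were seen. For such a gene the fold is a bound, the tumour mean against the control array's lowest signal well above background or the probe's own, whichever is higher. Tlr2, a receptor for bacterial lipoproteins, was at least 10.3-fold higher (limma adjusted p = 0.167). The interleukin genes Il23a and Il1a were at least 8.78-fold and 7.42-fold higher (0.153 and 0.162), and the chemokine gene Cxcl2 at least 2.58-fold higher (0.14). Their signals in the control, in that order, were −7.71, −7.86, −6.77 and −8.30, and their tumour ranges were −3.86 to −1.96, −3.62 to −1.90, −3.96 to −2.73 and −5.12 to −4.04.

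**Figure D5:**
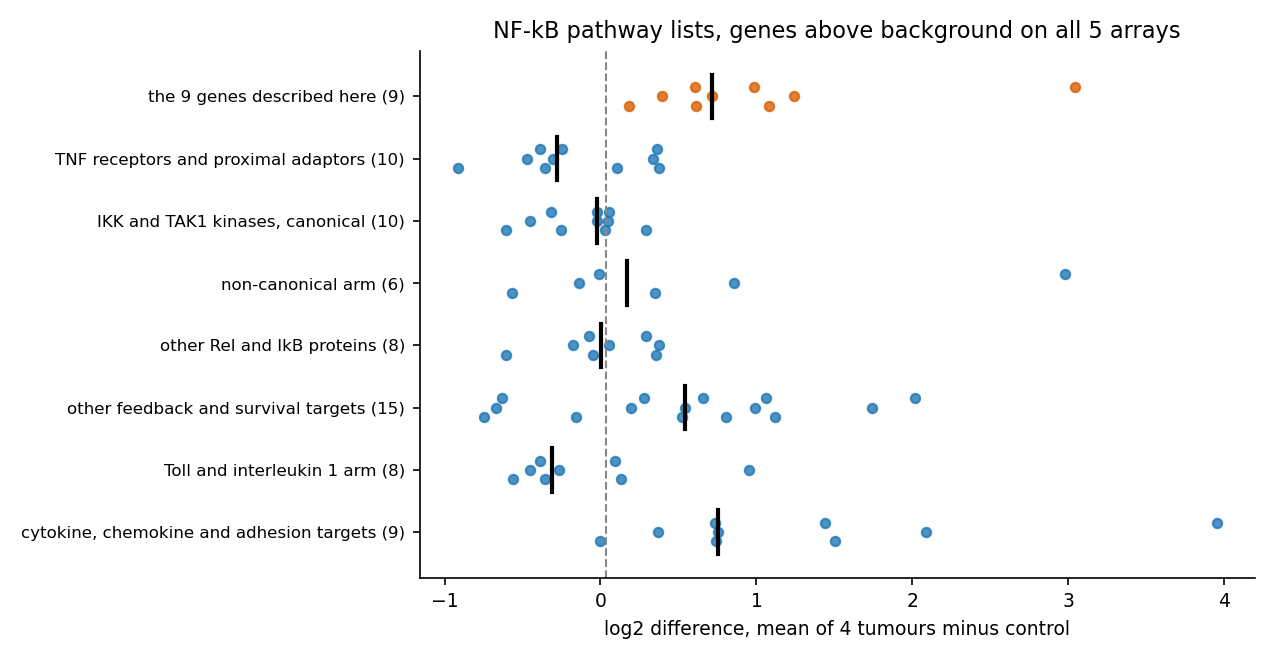
Log2 difference (mean of the 4 tumours minus the control) of the genes in the 7 pathway lists that were well above background on all 5 arrays, and of the 9 genes described here. Each point is 1 gene, the black bar is the median of its row, the number in brackets is how many genes are plotted, and the dashed line is the median of all 14581 such genes (0.03). Medians run from −0.31 for the Toll and interleukin 1 arm to 0.75 for cytokine, chemokine and adhesion targets.

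Leukocytes make TNF and many of these targets, and their markers were measured on the same arrays. In bulk samples, fewer cells of a type and less RNA per cell cannot be told apart. Of 16 leukocyte markers, 7 were well above background on all 5 arrays, 5 of them higher and 2 lower with a median of 0.24, and none passed. Adgre1, Lyz2, Tyrobp, Cd3g, Cd79a and Nkg7 were above background on no array. The defining leukocyte gene Ptprc read −6.78 in the control, −4.86 and −4.75 in the hairpins, −4.63 in Apc and −6.10 in Pik3ca, and was well above background in the hairpins and Apc only. Laptm5, a lysosomal gene of blood cells, read −7.34 and was not well above background in the control, and was so in all 4 tumours, at −4.77 and −4.49 in the hairpins, −5.20 in Apc and −2.42 in Pik3ca. It was at least 3.6-fold higher (limma adjusted p = 0.346) and was named after its value was seen. The summed linear signal of the list was 17.9 in the control, 22.3 and 33.4 in the hairpins, 26.3 in Apc and 24.3 in Pik3ca, in units of the array's 75th percentile, and was highest in hairpin 2. Most of it came from 3 bright probes, Cd68, Cd14 and Itgam, with 15.8 in the control and 19.7 to 31.2 in the tumours. The 13 other markers summed to 2.04 in the control and to 1.90 to 2.61 in the tumours, with Apc under the control on that sum. Csf1r and Cd3e, the brightest of the 13, read −0.07 and −0.25 in the control and −0.36 and −0.39 in Apc. Among dimmer ones, Ptprc, Laptm5 and Coro1a read higher in Apc than in the control, and Fcer1g lower. The macrophage-lysosome gene Cd68 and the actin regulator gene Coro1a were each well above background on all 5 arrays and differed by 0.98 and 1.00, and Fcer1g and Itgam by −0.34 and 0.28. The part of these markers in the members' values was not tested.

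Of 10 fibroblast markers, 5 were on no array above background. The summed signal of all 10 was 0.0897 in the control and 0.114 to 0.282 in the tumours, highest in Apc. Fibroblast markers above background numbered 2 in the control, 1 and 3 in the hairpins, 5 in Apc and 2 in Pik3ca. Dcn and Thy1 were above background in Apc only, at −3.25 and −5.12, where the control read −6.37 and −7.56. Pdgfra was so in 2 tumours and not in the control. These 3 genes were named after their values were seen. Col1a2, the only fibroblast marker above background on all 5 arrays, differed by 0.16. The part of fibroblast markers in the members' values was not tested. The summed signal of the 8 endothelial markers was 8.84 in the control and 5.08 to 8.59 in the tumours. Most of it came from Esam and Egfl7, at 2.21 and 1.99 in the control. Kdr, Cdh5 and Tek were not well above background in the control and were so in 3, 1 and 1 tumours. Emcn was the only listed gene to pass. It read −2.54 in the control, was not well above background in any tumour, and had an adjusted p of 0.00788. Emcn no longer passed in the fit that holds slide as a block (adjusted p = 0.0886), nor without hairpin 1, hairpin 2 or Pik3ca (0.071, 0.0831 and 0.0714). Among endothelial markers above background throughout, Esam differed by −1.17, Egfl7 by −0.03 and Pecam1 by 0.00. The 12 gastric epithelial markers summed to 876 in the control and to 576 to 811 in the tumours, mostly from Krt8, Krt18, Krt19 and Tff1. The median difference of the 12 markers was −0.36, with 2 higher and 10 lower. The largest differences among them were those of the stomach secretory genes Gkn2 (−1.52), Tff1 (−1.51) and Tff2 (−1.32) and of the gastric claudin gene Cldn18 (−1.20). The 2 higher markers were Epcam, by 0.94 ± 0.42 (limma adjusted p = 0.426), and Sox2, by 0.21. Both stood above the control in all 4 tumours and were named after their values were seen. Krt18 differed by −0.07. Whether epithelial makeup bears on the members' values was not tested.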

How the data were processed

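Per the labels' protocols, RNA was column-purified and Cy3-labelled, and per the submitters' processing notes Agilent Feature Extraction (11.0.1.1) quantified the spots. In the deposited scanner files the processed signal is an intensity from which the software had already subtracted background, per the file headers. A value table that the authors deposited holds log2 values. Its differences from the control had a slope of 1 against the scanner values over 53335 probes, and the baseline taken from each probe is unknown. From the scanner files, log2 signal minus the array's 75th percentile over 59305 non-control spots was computed, with outlier spots (78 to 114 an array) left out. Of 56605 probes, 34549 matched 1 gene symbol in a RefSeq table (GRCm38.p6, names only). A gene took its brightest probe, and the 17583 genes that had any probe well above background were tested (limma 3.58.1, R 4.3.3, two-sided, Benjamini-Hochberg over all genes, threshold 0.05), after tests on simulated data. Limma's tumour fit had 3 residual degrees of freedom and its genotype fit 1. Scanner spots gave a software error near 10% of signal for the members.

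The members and lists were chosen with earlier results of these data known. The genes named were the members, up to 4 listed genes with the largest difference among those above background on all 5 arrays, any that passed, and the 5 genes nearest Tnf and Nfkbia. Alternatives covered background correction, scaling, filter, floor, probe choice, the authors' table, slide and each array left out. Probe positions on the genome were not used here.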

Additional observations from a re-analysis of the deposited data

Results flagged for a closer look

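Among the 4 tumour arrays, Apc stood apart for Nfkbia. Its gap to the nearest tumour was 0.84 of the tumours' whole range, above the 95% limit of Dixon's test for 4 values. The values were 4.11 in Apc against 4.54, 4.56 and 4.62 in the others. Such a test was made for 9 genes, and chance alone marks about 1 in 20.

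Nfkb1 lay on opposite sides of the control in different tumour genotypes. Both hairpins were above the control and Pik3ca was under it, a difference of 0.39, and Apc was above it and Pik3ca under it, a difference of 0.16. The opposite signs themselves were not tested. In limma's fit the difference between shCdh1 and Pik3ca had an adjusted p of 0.997 and that between Apc and Pik3ca an adjusted p of 0.977. Pik3ca stood 0.05 under the control.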

How the results depend on the processing

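The number of arrays, 5 with 1 control, limits the precision. No paired analysis was possible because the groups share only the number 1, which names single arrays. The 21 genes past the threshold became 48 with normexp, 7 with genes above background on all 5 arrays, 49 with a floor under dim signals and 0 with slide as a block (1821 at an unadjusted p below 0.05). Leaving out 1 tumour array gave 0 to 19 genes, with 0 without hairpin 1, hairpin 2 or Pik3ca (2218, 2032 and 1852 at an unadjusted p below 0.05) and 19 without Apc. No member passed, and no member's tumour-minus-control difference reversed, in the 14 alternatives run. Tnf ran from 2.32 to 3.35 (adjusted p 0.122 to 0.327) and the adjusted p of Nfkbia from 0.164 to 0.441.

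Of 585 member values under alternatives, 10 reversed, none past the threshold, and the cause was not tested. Nfkb1 was 0.016 for Pik3ca minus control with normexp and −0.11 for Apc minus control under median scaling, which moved the median of all genes by −0.22 there and by −0.14 for tumours minus control. Tnfaip3 was −0.0099 for Apc minus Pik3ca under median scaling. For shCdh1 minus the mean of Apc and Pik3ca, Rela was 0.032 with the mean of its probes. Leaving out 1 array gave, for that comparison, −0.33 to 0.037 for Rela, −1.21 to 0.87 for Nfkbie, −0.37 to 0.74 for Birc3, −0.071 to 0.44 for Nfkbia and −0.27 to 0.55 for Relb. The counts of genes past the threshold in the genotype comparisons were 0 by limma under every alternative run. The counts of members without Pik3ca were chosen after seeing the data and stayed within 1.5 times.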
